A study of Mus musculus with 8 samples.

Results

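Circular RNAs (circRNAs) are closed loops made when the end of an exon is spliced back to the start of the same or an earlier exon. Those spliced from genes of ubiquitin attachment and removal were described in kidneys of mice with and without injury. Members were chosen by the symbol of the host gene, the gene whose transcript gives the loop. Symbols counted if they began with Usp, Ubr, Trim, Rnf, Herc, Cul, Wwp or Mib and a digit, with Ube2, Ube3 or Ube4, or with Fbx, Klhl (except Klhl3), Hectd, Huwe1, Nedd4, Itch, Birc6 or Smurf. This gave 248 of the 6315 listed circRNAs, from 105 of 2841 host genes. The choice used no measured value, and a symbol is not always a function: Usp6nl, which encodes a Rab GTPase-activating protein, matched by its name alone.

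Ubiquitin is passed from an activating enzyme (E1) to a conjugating enzyme (E2) and then, with the help of a ligase (E3), to a chosen protein, which is often degraded as a result. HECT ligases carry the ubiquitin themselves, RING and U-box ligases bring the E2 and the substrate together, and cullin-RING ligases do so with exchangeable substrate receptors such as F-box and BTB-Kelch proteins. Ubiquitin-specific proteases (Usp) take ubiquitin off again. In the kidney the system is known for removing sodium channels from the tubule membrane through Nedd4l and for setting the level of Smad proteins and their inhibitors in TGF-β signalling through Smurf2, Rnf111 and Trim33. A circRNA has no free ends and is usually more stable than the linear transcript. Its level is no measure of the host's messenger RNA or protein.

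All 8 libraries held total RNA from kidneys of C57BL/6L mice, as the labels spell the strain, aged 8 to 10 weeks, and no allele, transgene or drug is named. Of these, 3 came from kidneys on day 5 of unilateral ureteral obstruction (UUO), in which a tied ureter blocks the outflow of urine. A further 2 came from a group labelled acute-chronic (AC), also on day 5. The other 3 were controls, called wild type in the titles and sham-operated in the design text, which also speaks of ischaemia/reperfusion without tying it to the label AC. Whether each library stands for a separate animal is not stated in the labels, so p-values measure only the spread between these samples, which may be technical.

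Library totals were 46899 to 57754 counts in UUO, 40865 to 49147 in AC and 43971 to 65145 in control, so that 3 counts were worth 56.6 to 87.5 CPM, the usual unit of counts scaled to library size. Pairs of libraries of 1 group differed by 3 to 4.72 times counting noise (chi-square per degree of freedom), and none was treated as a duplicate. Hosts typical of the proximal tubule were listed for 4 of 16 markers (Aco1, Lrp2, Slc4a4 and Slc7a8), and their summed level was 2780 to 3110 CPM in UUO, 2860 to 3350 in AC and 4550 to 6530 in control. Markers of injured tubule were listed for 2 of 11 (Dcdc2a and Nfkb1) at 4690 to 5230 CPM in UUO, 4170 to 4550 in AC and 771 to 963 in control. Immune markers were listed for 2 of 17 (Ikzf1 and Prkcb) at 127 to 294 CPM in UUO, 70.7 to 379 in AC and 18.9 to 53.2 in control, and fibroblast and matrix markers for 0 of 13. The immune values in control stood for fewer than 3 counts, and none of the 7 immune circRNAs passed the filter. These summed levels of proximal tubule, injured tubule and immune markers moved with the groups. Those of thick ascending limb markers overlapped between UUO (330 to 1240 CPM) and control (393 to 532 CPM). Markers of distal tubule and collecting duct, podocyte and endothelium overlapped between UUO and control too. The part of these levels in the results on ubiquitin hosts was not tested. In whole kidney, fewer cells of a type and less RNA per cell cannot be told apart.

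CircRNAs of ubiquitin hosts were about as sparse as the rest. The median member had 13 counts over all 8 libraries together, against 14 over all listed circRNAs, and 130 members (52.4%, against 50.4%) had fewer than 15. A count above 0 in every library was seen for 59 members (23.8%, against 22.9%), and in a single library for 43 (17.3%, against 19.8%). A library held 136 to 148 members with a count above 0 in UUO, 138 and 138 in AC and 131 to 159 in control. A host had 2.36 member circRNAs on average, against 2.21 over all hosts, and 46 of the 105 hosts (43.8%, against 52.8%) had only 1. CircRNAs counted in UUO libraries alone numbered 15, those in AC libraries alone 10 and those in control libraries alone 24. None of these reached 10 counts in all, and none was tested. Such circRNAs were not counted over the whole list. The groups also differed in number and depth of libraries, so these numbers are no trait of the members.

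As a whole, the members held a like share of the circRNA counts in every group. The share was 4.91, 4.71 and 4.59% in the UUO libraries, 4.43 and 4.78% in the AC libraries and 4.47, 5.12 and 4.62% in the control libraries, with exact (Clopper-Pearson) 95% intervals that all lay between 4.25 and 5.30% and cover counting error only. Group means were 4.74 ± 0.162% in UUO (SD, n = 3), 4.60 ± 0.245% in AC (SD, n = 2) and 4.74 ± 0.344% in control (SD, n = 3), and the ranges of the groups overlapped. By class, 13 member circRNAs came from 6 E2 hosts, 47 from 14 HECT hosts, 84 from 35 RING or U-box hosts, 52 from 27 cullin-RING hosts, 7 from Birc6 and 45 from 22 Usp hosts. Ube2cbp was counted with E2 by its symbol, although it is an older symbol of Ube3d, a ligase.

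By class of host, the shares were described without a test. Hosts of cullin-RING ligases held 1.39, 1.29 and 1.27% of the counts in the UUO libraries, 1.11 and 1.05% in AC and 1.05, 1.12 and 1.11% in control, so that all 3 UUO libraries lay above the other 5. Fbxw4 and Fbxw7, 2 of the 27 hosts, carried that gap. Without them, a choice made after the values were seen, the class held 0.729, 0.749 and 0.667% in UUO, 0.667 and 0.629% in AC and 0.732, 0.706 and 0.764% in control, and the groups overlapped. E2 hosts held 0.429, 0.492 and 0.481% in UUO, 0.391 and 0.453% in AC and 0.396, 0.327 and 0.346% in control, with every UUO library above every control library. Without Ube2k, 1 of the 6 E2 hosts, UUO libraries held 0.119, 0.0647 and 0.100%, AC libraries 0.0468 and 0.0759% and control libraries 0.0250, 0.0875 and 0.0990%, and UUO and control overlapped. The shares of RING, Usp and Birc6 hosts overlapped between UUO and control. In AC, Usp hosts held 0.537 and 0.509%, above the 0.405, 0.459 and 0.426% of the control libraries. Usp3 gave 87 of 264 and 104 of 208 Usp counts in AC. In control it gave 68 of 178, 77 of 299 and 89 of 245, and the share of the class without Usp3 was not computed. Shares of HECT hosts are not reported here, so nothing is said on their direction.

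**Figure D1:**
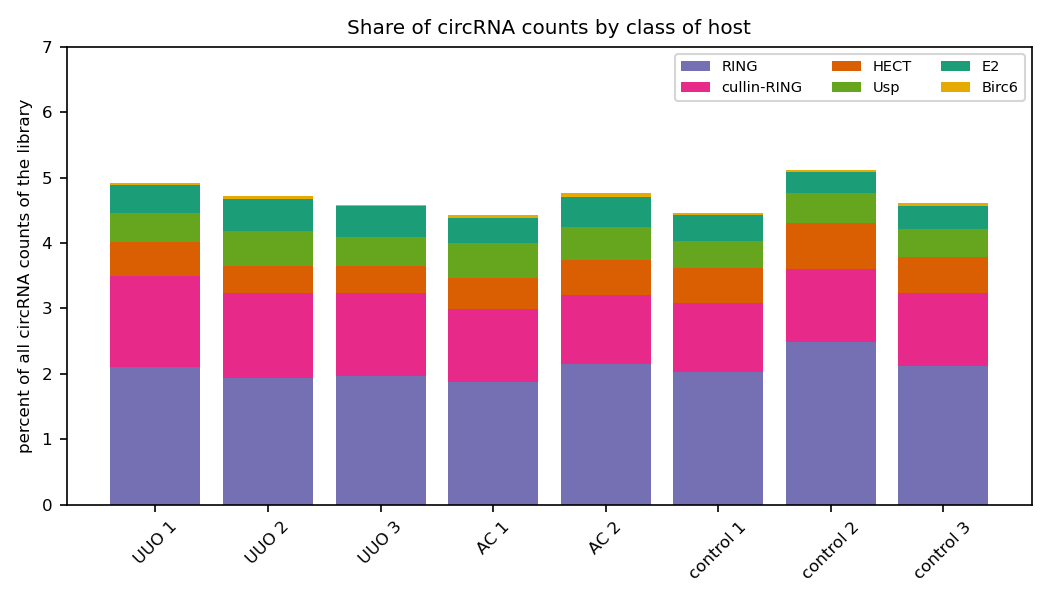
Stacked bars give, for each of the 8 libraries, the percent of all circRNA counts held by circRNAs of each class of ubiquitin host, with the UUO libraries left, AC in the middle and control right. The bars reach 4.43 to 5.12%, and the cullin-RING part is 1.27 to 1.39% in UUO against 1.05 to 1.12% in control, a gap that is gone without Fbxw4 and Fbxw7.

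A single circRNA of Rnf169, a RING protein that binds ubiquitylated histones at DNA double-strand breaks, dominated the set. With 4624 counts over all libraries, mmu_circ_0001605 ranked second of all listed circRNAs in the control libraries and held between 19.5 and 28.1% of the member counts of a library. Its level was 14465, 11583 and 11758 CPM in UUO, 10012 and 13331 CPM in AC and 13825, 17684 and 13625 CPM in control. Control replicate 2 was the highest library, the UUO and control ranges overlapped, and both AC libraries lay below the lowest control library, AC replicate 2 by a small margin. The log2 fold change was -0.26 (SE 0.16, adjusted p = 0.474, edgeR) for UUO against control and -0.37 (SE 0.18, adjusted p = 0.366, edgeR) for AC against control. The 10 most abundant members of a library together held 50.9 to 57.6% of its member counts.

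Next in order of counts came Ube2k, an E2 that builds ubiquitin chains, whose mmu_circ_0001350 had 3451, 4997 and 4535 CPM in UUO, 3746 and 4405 CPM in AC and 3962, 2793 and 2936 CPM in control. The groups overlapped, with log2 fold changes of 0.43 (SE 0.21, adjusted p = 0.357, edgeR) for UUO and 0.34 (SE 0.24, adjusted p = 0.604, edgeR) for AC against control. Other circRNAs in the leading 10 in control included those of Fbxw4, Rnf114, Usp3, Trim33, Fbxl17 and Cul1. Trim33, a nuclear RING protein that acts on Smad complexes, averaged 1098 ± 209.7 CPM in UUO, 1054 ± 325 CPM in AC and 1229.6 ± 153 CPM in control (mmu_circ_0001153). Cul1, the scaffold of the F-box ligases, averaged 1136 ± 357 CPM in UUO, 909 ± 213 CPM in AC and 1105 ± 80.4 CPM in control (mmu_circ_0013411). Fbxl17, an F-box protein that checks the pairing of BTB proteins, averaged 1027 ± 57.5 CPM in UUO, 1093 ± 146 CPM in AC and 1147 ± 98.7 CPM in control (mmu_circ_0000802). For each of these 3 circRNAs the libraries of the groups overlapped. The Trim33 total over its listed loops was 1210, 1351 and 932 CPM in UUO, by a small margin below the 1394, 1942 and 1372 CPM in control. Its log2 fold change was -0.44 (SE 0.28, adjusted p = 0.428, edgeR). The order is one of counts of back-spliced reads, and no length or detection rate of a loop was used here to turn it into molecules.

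UUO was first set against control, which asks how these circRNAs stand in the obstructed kidney. A circRNA of Fbxw7, the F-box receptor that marks cyclin E, Myc, Jun and Notch for degradation, rose, and it was the only member to pass the test at the level of single circRNAs. Fbxw7 also rose when its circRNAs were summed per host. The test was the quasi-likelihood test of edgeR with Benjamini-Hochberg adjustment over all tested circRNAs (threshold 0.05), and the filter on low counts left 55 of the 248 members (22.2%) and 1471 circRNAs in all.

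In UUO against control, 1 of the 55 tested members was called, where 4.35% of all tested circRNAs were (2.86% higher and 1.5% lower in UUO). Without adjustment 9 members (16.4%) had p under 0.05, against 15.5% of all tested circRNAs. UUO and control libraries did not overlap for 9 members that were higher and 8 that were lower in UUO, together 30.9%, against 24.3% of all tested circRNAs (13.3% higher and 11% lower). The log2 fold change was above 0 for 32 members and below 0 for 23, with a median of 0.16 beside 0.02 over all tested circRNAs, and the median was -0.0091 without UUO replicate 1. Summed per host, 2 of 48 tested member hosts were called, where 6.5% of 1185 tested hosts were (3.71% higher and 2.78% lower in UUO).

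Fbxw7 mmu_circ_0010820 had 81, 60 and 93 counts in UUO, 47 and 52 in AC and 27, 28 and 52 in control, which is 2055, 1401 and 1953 CPM in UUO, 1107 and 1517 CPM in AC and 718, 528 and 1075 CPM in control. Every UUO library and every AC library lay above every control library, and UUO and AC overlapped. The mean was 1803 ± 352 CPM in UUO (SD, n = 3) and 774 ± 278 CPM in control (SD, n = 3), a 2.33-fold increase with a fold change of 1.22 on the log2 scale (SE 0.32, adjusted p = 0.0397, edgeR). The call is a narrow one. It was lost without any 1 of the 3 UUO libraries and without control replicate 1 or 2, with adjusted p between 0.0887 and 0.166 (edgeR) and log2 fold changes between 0.98 and 1.38. DESeq2 gave adjusted p = 0.00648 for it.

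The second listed circRNA of Fbxw7, mmu_circ_0010819, had 9, 9 and 24 counts in UUO, 0 and 0 in AC and 0, 13 and 0 in control. All 3 UUO libraries held it, while 1 of the 5 other libraries did, at a level between those of the UUO libraries, and it did not pass the filter. With both loops added, Fbxw7 had 90, 69 and 117 counts in UUO, 47 and 52 in AC and 27, 41 and 52 in control, and the log2 fold change of UUO against control was 1.25 (SE 0.30, adjusted p = 0.0130, edgeR). Its adjusted p stayed under 0.05 in 13 of 16 alternative settings. It rose above 0.05 with a deposited constant as the library size (adjusted p = 0.0813, edgeR), without UUO replicate 1 (adjusted p = 0.0507, edgeR) and without UUO replicate 3 (adjusted p = 0.0717, edgeR).

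Among the other substrate receptors and scaffolds of cullin-RING ligases, values ran in both directions. Fbxw4 mmu_circ_0000955, from the F-box gene altered in the Dactylaplasia mouse, had 4263, 3853 and 3611 CPM in UUO, 3109.7 and 2538 CPM in AC and 2047, 3171 and 2439.7 CPM in control. Its UUO libraries were the 3 highest of the 8, with a log2 fold change of 0.61 against control (SE 0.22, adjusted p = 0.144, edgeR). Fbxo8 mmu_circ_0014868, from an F-box gene that also encodes a Sec7 domain, had 482, 374 and 252 CPM in UUO, 424 and 321 CPM in AC and 798, 585 and 1034 CPM in control. All injured libraries lay below all control libraries, with a log2 fold change of -1.13 for UUO (SE 0.40, adjusted p = 0.144, edgeR).

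Fbxo44 mmu_circ_0011407, from a further F-box gene, had 4, 8 and 9 counts in UUO, 4 and 9 in AC and 14, 33 and 20 in control, and a log2 fold change of -1.54 for UUO (SE 0.58, adjusted p = 0.169, edgeR). Its control libraries held more counts than any injured library. Cul4a, the scaffold that works with Ddb1 in DNA repair, had 14, 6 and 19 counts of mmu_circ_0001659 in UUO, 5 and 3 in AC and 16, 29 and 22 in control. In CPM its UUO libraries (355, 140.1 and 399) lay below its control libraries (425, 547 and 455), with a fold change of -0.67 on the log2 scale (SE 0.51, adjusted p = 0.582, edgeR). Of 16 tested cullin-RING circRNAs, 10 had a log2 fold change above 0 and 6 below, with a median of 0.17.

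RING and U-box hosts gave the largest fold changes in both directions, all at low counts. Rnf150 mmu_circ_0015026 had 10, 6 and 25 counts in UUO, 6 and 5 in AC and 1, 0 and 1 in control. No control library had more than 1 count and no injured library fewer than 5, and the ratio of the summed counts, scaled to library size, was 21.9 (exact binomial 95% interval 5.70 to 187, counting error only) for UUO against control. Only UUO libraries held as many as 10 counts, the count minimum of the filter. This circRNA was therefore tested only through the group in which it was high. It missed the threshold with adjusted p = 0.0657 (edgeR). Of 16 alternative settings, only 13 gave it an adjusted p, and it passed in 5 of these 13. They were DESeq2 (adjusted p = 0.0208) and, in edgeR, no filter (adjusted p = 0.0415), a total of at least 50 (adjusted p = 0.0419) and leaving out AC replicate 1 (adjusted p = 0.0473) or AC replicate 2 (adjusted p = 0.0393). It missed in the other 8, with adjusted p up to 0.269 (limma-voom). Another circRNA of the same host, mmu_circ_0001701, had 10, 16 and 9 counts in UUO, 13 and 8 in AC and 8, 12 and 7 in control, with overlap between all groups in counts. In CPM its AC libraries lay above its control libraries, while UUO and control overlapped. The Rnf150 total was 465, 457 and 634 CPM in UUO, 413 and 366 CPM in AC and 220, 232 and 155 CPM in control. Its log2 fold change for UUO was 1.35 (SE 0.47, adjusted p = 0.0963, edgeR).

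Ube4b, the U-box enzyme that lengthens ubiquitin chains, had 1, 0 and 4 counts of mmu_circ_0011432 in UUO, 8 and 9 in AC and 6, 25 and 6 in control. The UUO libraries held fewer counts than any other library, with a log2 fold change of -2.67 against control (SE 1.11, adjusted p = 0.221, edgeR). Ubr3, a relative of the ligases that read protein N-termini, had 7, 8 and 0 counts of mmu_circ_0001029 in UUO, 10 and 0 in AC and 17, 12 and 23 in control, and a log2 fold change of -1.66 for UUO (SE 0.98, adjusted p = 0.446, edgeR). Trim35, a tripartite-motif RING protein, had 16, 12 and 12 counts of mmu_circ_0005383 in UUO, 14 and 3 in AC and 4, 13 and 9 in control, with a log2 fold change of 0.77 for UUO (SE 0.66, adjusted p = 0.636, edgeR). Of the 17 tested circRNAs of RING and U-box hosts, 9 were above 0 and 8 below in log2 fold change, with a median of 0.05.

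Among HECT hosts, Itch and Huwe1 encode ligases with many substrates. Itch mmu_circ_0009461 had 8, 6 and 11 counts in UUO, 17 and 4 in AC and 3, 22 and 26 in control, and Huwe1 mmu_circ_0001900 had 3, 11 and 25 in UUO, 13 and 12 in AC and 10, 14 and 11 in control. Both overlapped between UUO and control, and control replicate 1 was lower for Itch than any UUO library. Of 7 tested HECT circRNAs, 4 had a log2 fold change above 0 and 3 below, with a median of 0.16.

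Of the deubiquitinases, a circRNA of Usp3, which acts on histone H2A, was higher in UUO. A circRNA of Usp12, which needs a WD-repeat partner for full activity, was lower, and neither passed the test. Usp3 mmu_circ_0001798 had 2030.1, 2405 and 2037 CPM in UUO, 2049.6 and 2625 CPM in AC and 1595, 1151 and 1489 CPM in control. All 5 injured libraries lay above all 3 control libraries, and the log2 fold change for UUO was 0.62 (SE 0.25, adjusted p = 0.198, edgeR). Usp12 mmu_circ_0012342 had 3, 8 and 6 counts in UUO, 9 and 8 in AC and 16, 11 and 21 in control, with a log2 fold change of -1.42 for UUO (SE 0.65, adjusted p = 0.290, edgeR). The Usp12 total overlapped between UUO (465, 644 and 354 CPM) and control (685, 410 and 928 CPM). Its log2 fold change was -0.46 (SE 0.41, adjusted p = 0.579, edgeR). Relative to the host as a whole, mmu_circ_0012339, the most counted Usp12 loop, stood at 0.73 and mmu_circ_0012342 at -0.80 on the log2 scale. Adjusted p was 0.999 for each (edgeR, diffSpliceDGE).

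Single circRNAs of Usp54 and Usp32 stood higher in UUO at low counts. Usp54 mmu_circ_0005106 had 15, 15 and 9 counts in UUO, 22 and 3 in AC and 6, 5 and 6 in control, with a fold change of 1.27 on the log2 scale (SE 0.72, adjusted p = 0.425, edgeR). Usp32, a membrane-bound deubiquitinase, had 8, 15 and 18 counts of mmu_circ_0003479 in UUO, 2 and 15 in AC and 4, 10 and 8 in control, a log2 difference of 0.99 (SE 0.74, adjusted p = 0.571, edgeR). UUO lay above control in CPM for both circRNAs, and for both 1 AC library was the highest and the other the lowest of all 8. The Usp32 total overlapped between UUO (465, 665 and 503 CPM) and control (293, 641 and 251 CPM). Its log2 fold change was 0.44 (SE 0.43, adjusted p = 0.621, edgeR). Of 10 tested Usp circRNAs, 6 were above 0 and 4 below, with a median log2 fold change of 0.08.

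**Figure D2:**
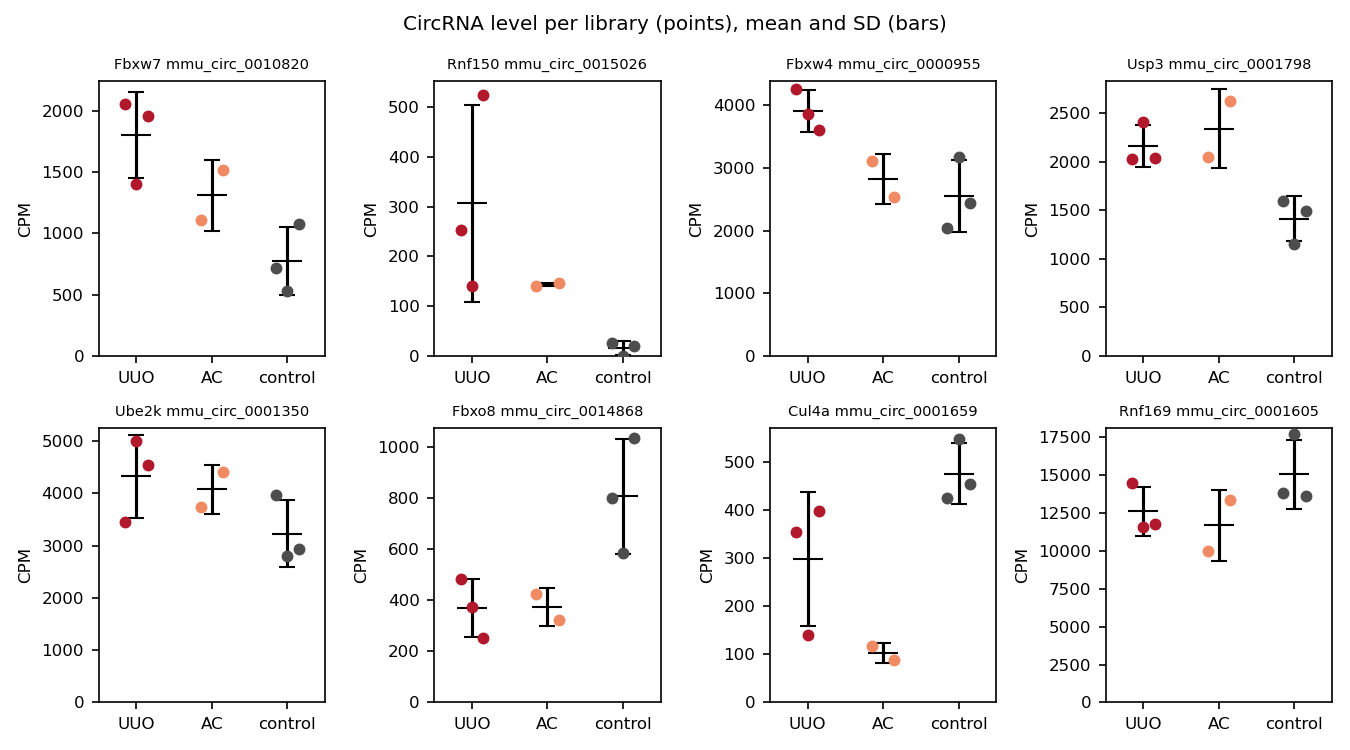
Each panel gives the level of 1 circRNA in CPM (counts scaled to library size), with a point per library, a horizontal line at the group mean and bars of 1 SD, for UUO (n = 3), AC (n = 2) and control (n = 3). Fbxw7 runs at 1401 to 2055 CPM in UUO against 528 to 1075 CPM in control, and Usp3 at 2030.1 to 2405 CPM in UUO against 1151 to 1595 CPM in control.

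The acute-chronic group was set against the same controls. None of the 55 tested members passed, where 3.33% of all tested circRNAs did, and none of the 48 tested member hosts passed, where 3.46% of all tested hosts did (edgeR, adjusted p under 0.05). Without adjustment 9 members (16.4%) had p under 0.05, against 14.1% of all tested circRNAs, and 8 member hosts (16.7%), against 15% of all tested hosts. DESeq2 called 2 member circRNAs, among them that of Cul4a, and 0 member hosts, and limma-voom called 0 of either. What these tools called among all tested circRNAs and hosts was not counted, so these member counts have no share beside them. AC and control libraries did not overlap for 7 members that were higher and 7 that were lower in AC, together 25.5%, against 30.7% of all tested circRNAs (15.4% in each direction). The median log2 fold change was -0.05 beside -0.02 over all tested circRNAs, and it was 0.18 without control replicate 2 and -0.30 without AC replicate 2.

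Cul4a had the lowest log2 fold change of the members whose AC and control libraries did not overlap. Its CPM values were 118 and 87.5 in AC against 425, 547 and 455 in control, a fold change of -2.17 on the log2 scale (SE 0.67, adjusted p = 0.113, edgeR; 0.0498 in DESeq2). The AC libraries held 5 and 3 counts, so few reads stand behind that value.

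The F-box genes that were low in UUO libraries were low in AC libraries too. Log2 fold changes in AC were -1.10 for Fbxo8 (SE 0.46, adjusted p = 0.283, edgeR) and -1.42 for Fbxo44 (SE 0.68, adjusted p = 0.357, edgeR). Both injury groups were set against the same 3 control libraries, so a like direction in both is not independent. Usp30, a deubiquitinase of the mitochondrial outer membrane that opposes mitophagy, had 636 and 496 CPM of mmu_circ_0012017 in AC and 824, 1359 and 909.7 CPM in control, with a fold change of -0.86 on the log2 scale (SE 0.38, adjusted p = 0.313, edgeR). Rnf114 mmu_circ_0009604, from a RING ligase gene, had 1272 and 613 CPM in AC and 1569, 2152 and 1282 CPM in control, a fold change of -0.81 on the log2 scale (SE 0.37, adjusted p = 0.344, edgeR) in which the higher AC library almost reached the lowest control library.

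On the higher side in AC stood single circRNAs of Rnf150, Rnf111, Fbxw7, Usp3 and Herc2. For Rnf150 mmu_circ_0015026 the scaled sums of counts stood in a ratio of 9.96 in AC against control (exact binomial 95% interval 2.17 to 92.5, counting error only; adjusted p = 0.302, edgeR). Rnf111, also called Arkadia, which removes inhibitors of TGF-β signalling, had 24 and 6 counts of mmu_circ_0015842 in AC and 5, 7 and 2 in control, with a fold change of 1.85 on the log2 scale (SE 0.87, adjusted p = 0.353, edgeR). The lower AC library had a count between those of the control libraries, and only after scaling did it lie above them, at 175 CPM against at most 133 CPM. The Rnf111 total was 674 and 602 CPM in AC, 488, 457 and 410 CPM in UUO and 147, 285 and 387 CPM in control. Its log2 fold change for AC was 1.20 (SE 0.48, adjusted p = 0.214, edgeR).

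Fbxw7 mmu_circ_0010820 in AC stood at a log2 fold change of 0.76 against control (SE 0.36, adjusted p = 0.353, edgeR), and the Fbxw7 total at 0.57 (SE 0.34, adjusted p = 0.453, edgeR). For Usp3 it was 0.73 (SE 0.27, adjusted p = 0.208, edgeR), with 2337 ± 407 CPM in AC (SD, n = 2) and 1412 ± 232 CPM in control (SD, n = 3). Herc2, a very large HECT ligase of the DNA damage response, had 895 and 700.1 CPM of mmu_circ_0014263 in AC and 558, 679 and 227 CPM in control, with a fold change of 0.71 on the log2 scale (SE 0.48, adjusted p = 0.588, edgeR). The AC libraries of this Herc2 circRNA lay just above the highest control library. The Herc2 total overlapped between AC (1196 and 1335 CPM) and control (880, 1247 and 735 CPM). Its log2 fold change was 0.40 (SE 0.39, adjusted p = 0.701, edgeR). For Fbxw4 mmu_circ_0000955 the groups overlapped and the log2 fold change was 0.14 (SE 0.25, adjusted p = 0.862, edgeR), a direction that turned in 2 of 16 alternatives.

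**Figure D3:**
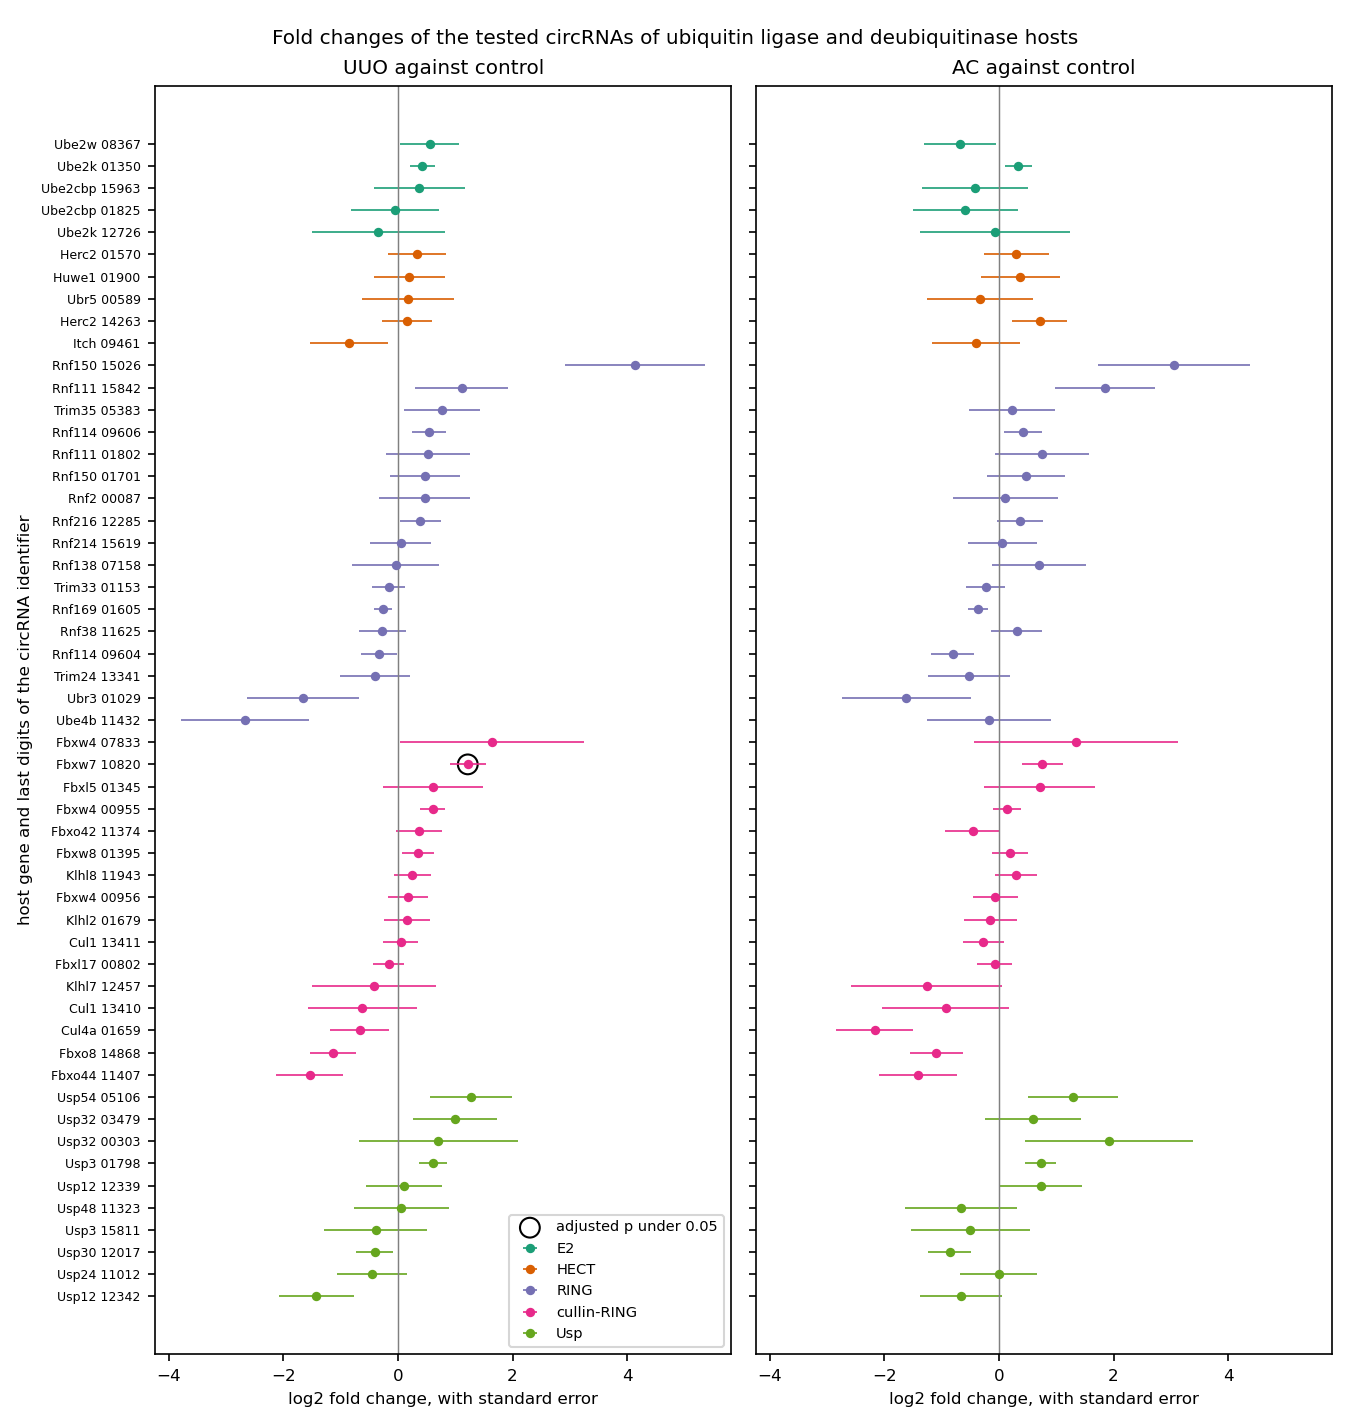
Points give the fitted log2 fold change of 53 of the 55 tested member circRNAs with its standard error, in UUO against control (left) and AC against control (right), sorted by class (colour) and, within a class, by the UUO value. Both panels share the control libraries; the ringed point, Fbxw7 at 1.22, is the only one of all 55 with an adjusted p under 0.05 (edgeR), and the fitted value of Rnf150, with 2 counts in control, depends on the prior count.

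Set against each other, UUO and AC gave no call among the 55 members or among all 1471 tested circRNAs (0%, edgeR), nor did DESeq2 or limma-voom call a member. At an unadjusted p under 0.05 there was 1 member, against 82 of all tested circRNAs (5.57%), and 1 member host, against 5.99% of all tested hosts, of which 0% were called. The circRNA was that of Cul4a, with 355, 140.1 and 399 CPM in UUO and 118 and 87.5 CPM in AC, a fold change of 1.50 on the log2 scale (SE 0.68, adjusted p = 0.852, edgeR). For Fbxw7 mmu_circ_0010820 the log2 fold change of UUO against AC was 0.46 (SE 0.35, adjusted p = 0.939, edgeR), and for its host total 0.68 (SE 0.33, adjusted p = 0.819, edgeR). The call of Fbxw7 in UUO and its absence in AC are therefore no difference between the injury groups that passed a test. The ratio of scaled sums of counts of Rnf150 mmu_circ_0015026 was 2.20 (95% interval 1.11 to 4.75, counting error only; adjusted p = 0.940, edgeR).

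Hosts differed in how their counts were spread over loops. The largest number of listed circRNAs per member host was 7, reached among others by Birc6, Trim24, Trim33, Trim37 and Ubr3, followed by Herc3 and Ube3c with 6. In Trim33 the leading circRNA held 76.9% of the counts of the host, in Ube3c 71.2% and in Ubr3 53.5%. In Trim24, a nuclear receptor coregulator, it held 49.8%, in Birc6, an inhibitor of apoptosis that works as E2 and ligase in 1 chain, 33.3%, in Herc3 31.5% and in Trim37 28.9%. The hosts with the flattest spread were thinly counted, with 156 counts over all libraries for Birc6, 73 for Herc3 and 45 for Trim37. None of the circRNAs of these 3 hosts passed the filter.

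Rnf114 had a pair of loops at a similar level. Its mmu_circ_0009604 had 43, 52 and 79 counts in UUO, 54 and 21 in AC and 59, 114 and 62 in control, and its mmu_circ_0009606 had 42, 66 and 59 in UUO, 40 and 49 in AC and 37, 46 and 39 in control. The first loop led in all 3 control libraries, while the second led in 1 of the 2 AC libraries and 1 of the 3 UUO libraries. Their departures from the change of the host as a whole in AC against control were -0.55 and 0.68 on the log2 scale, with adjusted p = 0.996 for each (edgeR, diffSpliceDGE).

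Across hosts, 25 member circRNAs of hosts with several tested loops could be tested for a change that differs from that of their host, and 0 passed in any of the 3 comparisons. In all hosts together 705 circRNAs were tested in this way, of which 0% passed in UUO against control, 0.142% in AC against control and 0.142% in UUO against AC. At an unadjusted p under 0.05 there was 1 of the 25 members (4%) in UUO against control, the Rnf150 loop with the high ratio, where 1.84% of all 705 were. In AC against control there were 0 members, where 2.7% of all were, and in UUO against AC 0, where 2.27% were. The departure of that loop from its host was 2.67 on the log2 scale (adjusted p = 0.999, edgeR, diffSpliceDGE).

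**Figure D4:**
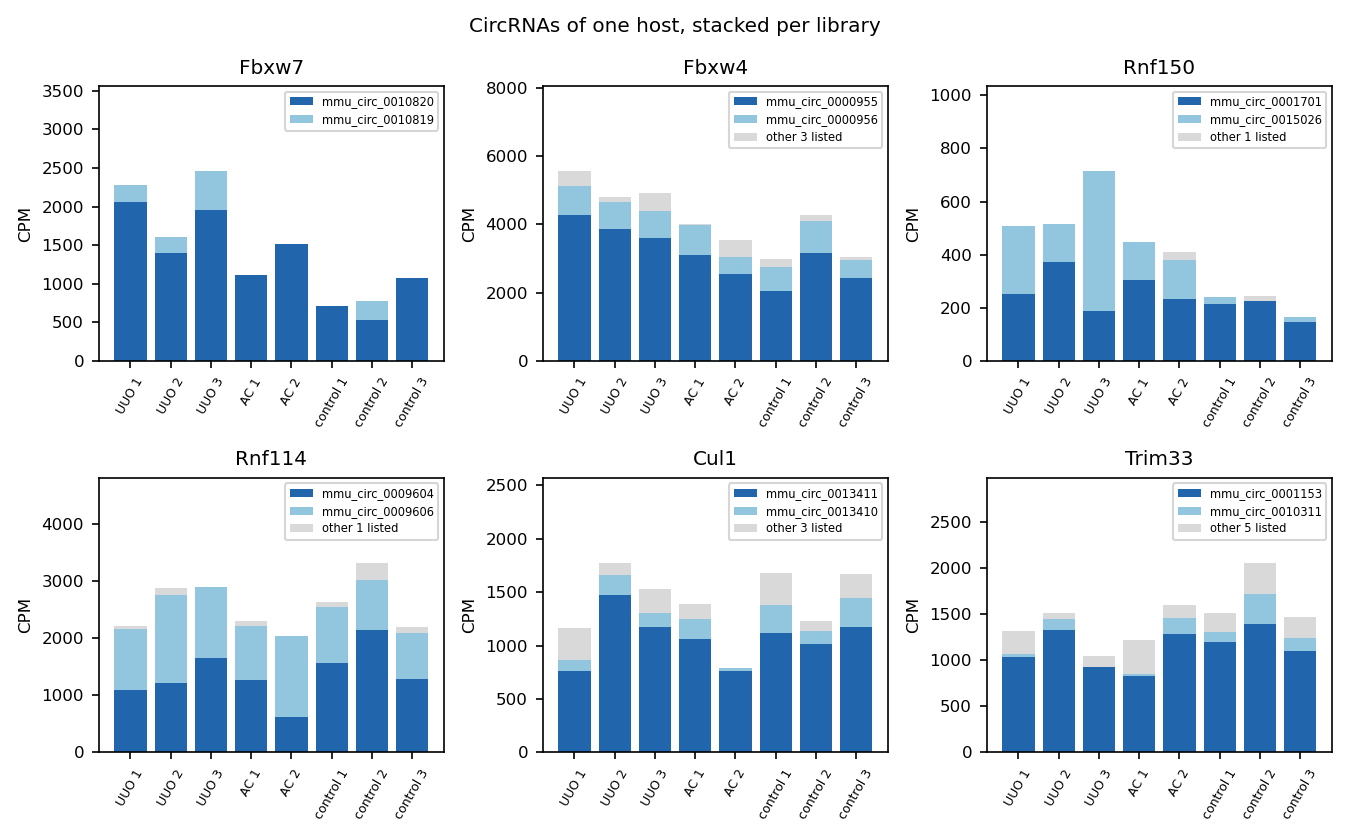
Stacked bars give the level in CPM of the circRNAs of 6 hosts in each library, UUO left, AC in the middle and control right, with the most abundant loop at the bottom, the next above it and the other listed loops in grey. The second loop of Fbxw7 is seen in all 3 UUO libraries and in control replicate 2, and the lower Rnf114 loop is shorter than the upper in AC replicate 2 and UUO replicate 2.

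Several ligases with a known part in kidney biology were barely counted. Nedd4l, which removes the epithelial sodium channel, had listed circRNAs with 0, 1 and 0 counts in UUO, 0 and 5 in AC and 0, 0 and 4 in control when added up. Smurf2, which acts on TGF-β receptors and Smad proteins, had 0, 5 and 0 counts over its 2 circRNAs in UUO, 0 and 0 in AC and 0, 0 and 6 in control. Mib1, which activates Notch ligands, had 1, 6 and 2 counts in UUO, 0 and 2 in AC and 0, 0 and 0 in control, too few to pass the filter. Wwp1, Wwp2, Cul3, Cul5, Fbxw11, Usp9x and Usp15 were listed as well, with at most 12 counts of any 1 circRNA in any library. None of these hosts passed the filter, so a change in them was not tested.

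Other genes of the pathway were looked up in the same way. Of 413 further genes (E1 enzymes, other ligases, cullin-RING adaptors, other deubiquitinases, and proteasome and ubiquitin-receptor genes), 110 were listed as hosts, with 260 circRNAs of which 61 were tested. These lists also took in enzymes of related modifiers. Among the tested hosts, Pias1, Pias2, Senp1, Senp5 and Senp6 act on SUMO, a relative of ubiquitin, and are not ubiquitin ligases or deubiquitinases. None of the 61 passed in UUO against control, in AC against control or in UUO against AC (edgeR). At an unadjusted p under 0.05 there were 2 (3.28%) in UUO against control, where 15.5% of all tested circRNAs were, 4 (6.56%) in AC against control, where 14.1% were, and 3 (4.92%) in UUO against AC, where 5.57% were. DESeq2 called 1 in UUO against control and 0 in the other comparisons, and limma-voom called 0 in each. The share of all tested circRNAs called by these tools was not counted. In UUO against control 29 had a log2 fold change above 0 and 32 below, with a median of -0.02, and in AC against control 25 were above and 36 below, with a median of -0.11.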

How the data were processed

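The authors deposited 1 table of whole-number counts of 6315 circRNAs in 8 kidney libraries, without normalization, and 1 table of a signal that, from its values, is each count divided by 1 constant per library (100% whole within 0.01 after multiplying back). The submitters' processing notes name the tools HISAT2 and StringTie and the build mm9. Not given in the sources used here are the caller of circular junctions, its read minimum and any use of strand, so overlapping and antisense genes may share reads. No circRNA sequence or coordinate was used.

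From the counts, edgeR 4.0.16 (R 4.3.3) was run with TMM factors, its default filter (count minimum 10, total minimum 15), 1 quasi-likelihood fit of 3 groups over all circRNAs and 1 over host sums, and diffSpliceDGE within hosts. CPM are counts scaled to the totals left after the filter and the TMM factors; host sums have their own scale. SE is the size of the log2 fold change divided by the root of edgeR's F statistic. The biological coefficient of variation was 0.413 for circRNAs and 0.349 for hosts. With 1 to 3 counts in a group, a ratio of scaled sums is printed with its exact binomial 95% interval. Scripts were tested on simulated data.

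Named members were those called, the 5 largest increases and decreases without overlap per control comparison, the 10 highest in control, hosts with 6 or more circRNAs and a list of known ligases. A further host that met this rule is not reported here. Further loops of a named host were named after their values were seen. The members and lists were chosen with earlier results of these data known. Alternatives were other size factors, filters, tests (DESeq2 1.42.0, limma-voom 3.58.1), a replicate block and leaving out each library.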

Additional observations from a re-analysis of the deposited data

How the results depend on the processing

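Calls in UUO against control depended on the setting. The count of member circRNAs was 1, and it was 0 with the deposited constant as library size, 0 with a replicate block, 2 without the filter, 2 with a total of at least 50 and 2 in DESeq2, and it ran from 0 to 2 when 1 library was left out. The count of member hosts was 2, and it was 1 with DESeq2 size factors, 0 with the constant, 1 with a total of at least 50 and 1 with the block, and 0 to 2 when 1 library was left out. In AC against control DESeq2 called 2 member circRNAs, and every other setting called 0. Under the alternative settings, calls among all tested circRNAs and hosts were not counted, so these member counts have no share beside them. Median log2 fold changes of members in UUO were -0.20 with the constant (-0.26 over all tested circRNAs), 0 without the filter and -0.0091 to 0.25 when 1 library was left out. In AC they were -0.39 with the constant (-0.34 over all) and -0.30 to 0.18 when 1 library was left out. The constant thus shifts all circRNAs, and by its construction it scales control replicate 2 up.

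Of 35 named values under 539 alternatives in all, 521 kept their direction and side of the threshold and 2 turned. Fbxw4 mmu_circ_0000955 in AC was -0.22 with the constant and ran from -0.059 to 0.33 when 1 library was left out. The cause was not tested. Deviations of same-numbered libraries from their group means had correlations of -0.11 to 0.04. With groups of 2 or 3 libraries these cannot decide whether libraries were paired, and the main fit used no pairing. Under the block Fbxw7 mmu_circ_0010820 had a log2 fold change of 1.25 (adjusted p = 0.0771, edgeR). Asking for 3 counts, members detected averaged 97.7 in UUO, 99 in AC and 102 in control. The filter left 55 of 248 members tested.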
